A study of Mus musculus with 4 samples.

Results

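Single-exon coding genes were examined for H3K36me3 and H3K9me3 in mouse embryonic stem (ES) cells. They were defined as autosomal protein-coding genes whose annotated transcripts all have 1 exon, with the replication-dependent histone genes (Hist symbols) left out. Without the Hist genes, the GENCODE vM1 annotation of the mm9 genome held 21351 autosomal coding genes, of which 2672 met this rule. These 21351 are the set called all autosomal coding genes below. They were touched by 494 of the 64095 regions enriched for either mark, made up of 63 of 31593 H3K36me3 regions and 431 of 32502 H3K9me3 regions. The rule itself uses the annotation and no measured value.

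The regions came from chromatin immunoprecipitation and sequencing of 4 libraries, 1 for each mark in each cell type. WT cells were unmodified 129S1/SvImJ ES cells, and G34R cells carried a glycine to arginine substitution of histone H3.3 on a single H3f3a allele, expressed from that gene's own promoter (H3f3a +/G34R), with both copies of H3f3b intact in all cells. All were grown with serum and leukaemia inhibitory factor. The authors listed each mark's regions for both cell types together, so WT and G34R cells could not be compared here, no value has a replicate, and the depth behind a region is unknown. The lists hold no expression values, so the ES cell identity was not checked against its markers.

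H3K36me3 is placed by SETD2, which travels with elongating RNA polymerase II, and it marks the bodies of transcribed genes, rising towards their ends. H3K9me3 is placed by SETDB1 and the SUV39H enzymes and is known for silent chromatin, including retrotransposons, imprinted loci and zinc finger gene clusters. KDM4 enzymes can remove both. Genes without introns are never spliced. They include chemosensory receptors, retrogenes that arose by reverse transcription of a spliced mRNA, and many developmental transcription factors and receptors with short, CpG-rich bodies.

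Coding stretches of 150 bases from 5 of the genes are shown as examples, 4 of them CpG-rich and in regions of a mark and 1 CpG-poor and without one. They do not span the base composition of the marked genes, whose lower quartile of G+C was 48.35% with H3K9me3 alone. The stretches were read from the NCBIM37 (mm9) reference, which is C57BL/6J and not the 129S1/SvImJ strain of the cells, are written 5′ to 3′ on the strand of the gene, and have each CG dinucleotide in capitals. Foxd3, a forkhead repressor (chr4:99323944-99324093, plus strand), and Adra2c, an adrenergic receptor (chr5:35623146-35623295, plus strand), lay in H3K9me3 regions. Ier2, an immediate early gene (chr8:87186019-87186168, minus strand), lay in regions of both marks, and Pcbp1, which encodes a protein that binds poly(C) RNA (chr6:86475246-86475395, minus strand), lay in an H3K36me3 region. Olfr853, an olfactory receptor (chr9:19341840-19341989, minus strand), had neither mark.
Foxd3: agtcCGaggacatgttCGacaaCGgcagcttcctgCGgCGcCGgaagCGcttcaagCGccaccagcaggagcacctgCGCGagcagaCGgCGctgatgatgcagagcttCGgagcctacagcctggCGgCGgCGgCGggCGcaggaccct
Adra2c: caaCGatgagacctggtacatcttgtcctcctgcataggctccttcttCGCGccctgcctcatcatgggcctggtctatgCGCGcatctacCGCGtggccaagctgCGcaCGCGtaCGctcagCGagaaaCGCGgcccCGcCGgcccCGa
Ier2: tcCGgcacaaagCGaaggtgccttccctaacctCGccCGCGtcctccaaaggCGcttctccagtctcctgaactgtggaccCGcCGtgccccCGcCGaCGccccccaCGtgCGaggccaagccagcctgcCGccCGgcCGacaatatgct
Pcbp1: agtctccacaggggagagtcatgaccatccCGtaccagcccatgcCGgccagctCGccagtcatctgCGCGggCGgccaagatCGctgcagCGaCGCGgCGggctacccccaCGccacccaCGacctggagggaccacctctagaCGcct
Olfr853: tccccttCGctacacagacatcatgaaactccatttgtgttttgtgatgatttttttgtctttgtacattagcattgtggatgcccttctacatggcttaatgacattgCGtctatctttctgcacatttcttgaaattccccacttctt
These stretches held 18, 17, 16, 14 and 2 CG dinucleotides in that order, and the olfactory receptor stretch was 38.7% G+C against 64.7% to 68.7% in the other 4.

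H3K36me3 was rare in single-exon genes. A gene was taken to carry a mark when at least 1 bp of it lay in a listed region. By this measure 56 of the 2672 genes carried H3K36me3, or 2.10% (95% Wilson interval 1.62 to 2.71), against 35.3% of all autosomal coding genes and 30.8% of multi-exon genes of up to 10 kb. H3K9me3 was found in 389 genes, or 14.6% (13.3 to 15.9), against 41.5% of all autosomal coding genes and 25.8% of multi-exon genes of up to 10 kb. Both marks were found in 11 genes, or 0.412% (0.230 to 0.736), against 12.6% of all autosomal coding genes. The product of the shares of each mark in the single-exon genes gave 8.15 genes. This comparison changed with the gene set. Without genes that overlap another, 10 genes carried both marks against a product of 3.48. In named genes without chemosensory receptors it was 5 genes against 8.33. Intervals cover counting error over genes only, and genes are not replicates of the cells.

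Most single-exon genes are short, with a median length of 954 bp (quartiles 897 and 1239), whereas the median multi-exon gene spans 19948 bp, so each mark was compared at the same length. Multi-exon genes weighted to the lengths of the single-exon genes carried H3K36me3 in 8.24%, and the share in single-exon genes was lower by 6.14 percentage points (difference -6.14, 95% interval -7.93 to -4.35). Its size depended on the setting. It ran from -2.71 points with at least 50% of the gene covered to -19.05 points when matched on transcript length. All 17 alternative settings gave a difference below 0. The gap was wider in the longer classes, and its interval included 0 in the class of up to 500 bp (-9.64 to 0.778). Among genes of 2001 to 3000 bp, 13 of 209 single-exon genes (6.22%) and 170 of 653 multi-exon genes (26.0%) carried H3K36me3. Among genes of 3001 to 5000 bp, 7 of 128 single-exon genes (5.47%) and 441 of 1421 multi-exon genes (31.0%) did.

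For H3K9me3 the length-weighted share of multi-exon genes was 13.2%, and the difference of 1.36 percentage points (-1.51 to 4.22) did not exceed its counting error. This average covered unlike length classes. Up to 1500 bp no class differed beyond its interval, while above that length single-exon genes carried H3K9me3 more often in each class. The mark was found in 85 of 209 single-exon genes of 2001 to 3000 bp (40.7%, against 22.97% of multi-exon genes) and in 64 of 128 of 3001 to 5000 bp (50.0% against 25.8%, difference 24.2, 15.4 to 33.1). Chemosensory receptors make up much of the short classes. Without them the difference over all lengths was 7.79 points (4.63 to 10.96), and with length and G+C content matched together, in all genes, it was 4.13 points (1.46 to 6.80). With genes under 80% unique sequence left out it was 3.82 points (0.266 to 7.37), and with genes that overlap another left out it was -1.20 points (-4.80 to 2.40). Matched on transcript length, where a multi-exon gene spans more DNA than its single-exon match, the difference turned to -12.6 points (-14.4 to -10.8).

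**Figure D1:**
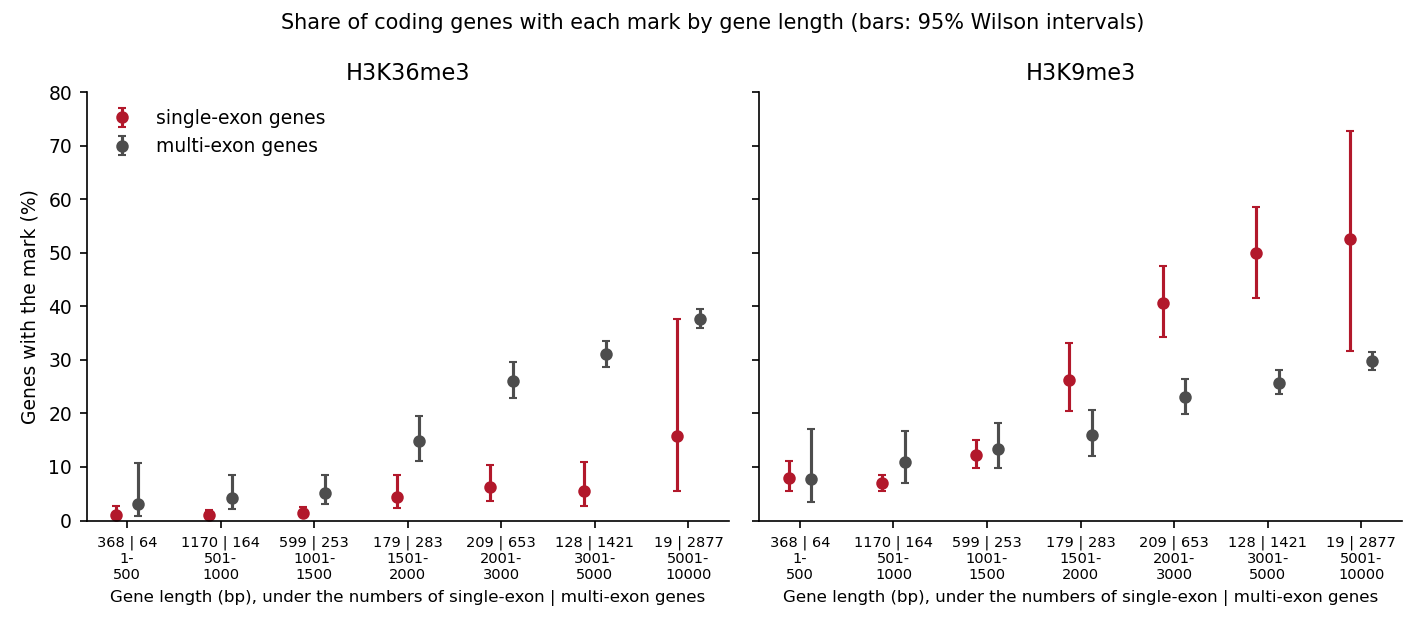
Share of single-exon (red) and multi-exon (grey) autosomal coding genes with H3K36me3 (left) and H3K9me3 (right), in percent, by gene length class in bp, with 95% Wilson intervals. Single-exon genes lie below multi-exon genes for H3K36me3 in each class, and above them for H3K9me3 from 1501 bp upwards.

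The share of genes with H3K36me3 rose with the number of exons within broad ranges of gene length. Among genes of 1001 to 3000 bp it was 2.94% of genes with 1 exon (29 of 987), 9.01% with 2 (41 of 455), 17.3% with 3 or 4 and 58.8% with 9 or more (10 of 17), and 88 of the 220 genes with 5 to 8 exons carried the mark. Among genes of 3001 to 10000 bp the same order ran from 6.80% (10 of 147) to 60.5%. Single-exon genes lay at the low end of this order, and differed beyond counting error even from genes with 2 exons (-6.07 points, -9.19 to -3.46, and -10.3 points, -14.7 to -4.28). The median length also rose with exon number within each range, from 1285 to 2808 bp in the shorter one and from 3628 to 7171.5 bp in the longer. Length was therefore not held fixed across exon numbers.

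H3K9me3 ran the other way in the longer genes, from 50.3% with 1 exon (74 of 147) and 36.01% with 2 to 24.5% with 5 to 8 and 26.4% with 9 or more. In genes of 1001 to 3000 bp it was 20.8% with 1 exon, 22.2% with 2, 18.3% with 3 or 4, 15.9% with 5 to 8 and 11.8% with 9 or more (2 of 17), and the intervals of the differences from single-exon genes included 0. When only named genes other than chemosensory receptors were counted, the fall appeared in the shorter range too, from 36.9% with 1 exon to 15.4% with 5 to 8 (difference 21.5 points, 13.5 to 28.8). It did not appear in genes without overlap with another gene, at 18.1% with 1 exon, 19.4% with 2 and 13.5% with 5 to 8, where the intervals of the differences included 0. The expression of these genes was not measured in the lists, and its part in these differences was not tested.

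**Figure D2:**
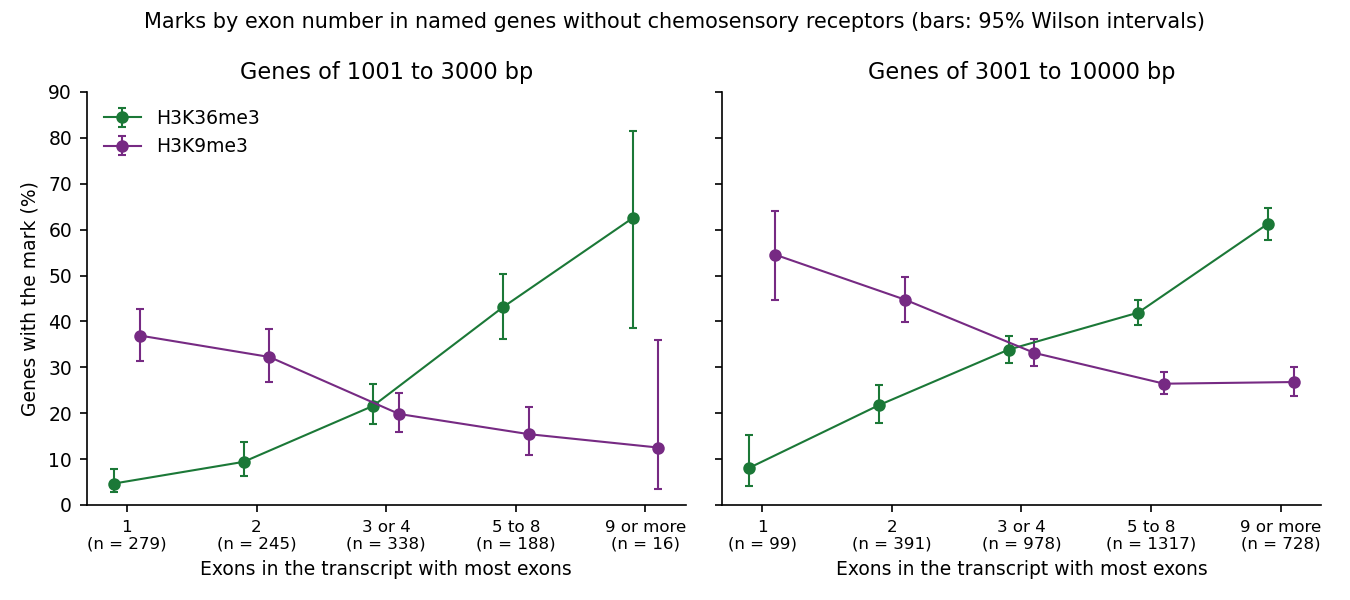
Share of named genes, chemosensory receptors left out, with H3K36me3 (green) and H3K9me3 (purple), in percent, by number of exons in genes of 1001 to 3000 bp (left) and 3001 to 10000 bp (right), with 95% Wilson intervals. H3K36me3 climbs from 4.66% to 62.5% in the shorter genes while H3K9me3 falls from 36.9% to 12.5%.

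Part of the H3K36me3 in single-exon genes lay where another gene does. Of the 2226 genes whose span held no other annotated gene, 28 carried H3K36me3 (1.26%), against 13 of 167 inside an intron of a multi-exon coding gene (7.78%, a difference of 6.53 points, 3.30 to 11.6) and 15 of 248 sharing exonic sequence with another gene (6.05%). For 12 of the 13 intronic genes the host carried H3K36me3 outside the small gene as well, and 3 lay on the strand of their host. Sharing with the host was not particular to this mark. For all 26 intronic genes with H3K9me3 the host carried H3K9me3 outside the small gene, and 9 lay on the strand of their host. Of all autosomal coding genes 35.3% carried H3K36me3 and 41.5% H3K9me3, and the shares among hosts of unmarked genes were not computed. A region that runs past the small gene also lies in its host, so these host counts were partly fixed in advance. In all, 23 of the 56 genes (41.1%) had H3K36me3 regions that touched no other gene, compared with 266 of the 389 genes with H3K9me3 (68.4%). For H3K9me3 the genes in introns (26 of 167, 15.6%) did not differ from genes alone (277 of 2226, 12.4%) beyond counting error (3.13 points, -1.81 to 9.53), and those sharing an exon were higher (83 of 248, 33.5%, a difference of 21.0 points, 15.3 to 27.3). In these contrasts the sets were not matched for family or length, and chemosensory receptors were kept. Without those receptors 3.63% of all single-exon genes carried H3K36me3 and 22.9% H3K9me3. The part of family and length in the contrasts was not tested.

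The 10 genes with the most H3K36me3 and no H3K9me3 held between 1000 and 4000 bp of it. Exoc8, a subunit of the exocyst that tethers secretory vesicles (chr8:127414200-127421605), had 4000 bp of its 7406 bp in H3K36me3 regions, of which 1222 bp were coding, and no other gene lay across it. Pcbp1 (chr6:86474493-86476165) had 1308 of 1673 bp, 959 of them coding. Irf2bp1, a transcriptional corepressor (chr7:19589414-19592110), had 1000 of 2697 bp. These 3 genes held the mark in regions that touched no other gene.

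Others lay in or against a second gene. Cstf2t, a polyadenylation factor paralogue used in the testis (chr19:31157331-31161080), had 1800 of 3750 bp within an intron of Prkg1. Gsg2, the histone kinase haspin (chr11:72948987-72951796), had 1200 of 2810 bp within an intron of Itgae. Rsc1a1, a regulator of a glucose transporter (chr4:141239766-141241514), had its whole 1749 bp covered and shares exonic sequence with Ddi2. The longer model of Rbm15b, an RNA-binding cofactor of m6A methylation (chr9:106786316-106789331), had 1485 of 3016 bp, and lies in an annotated intron of Manf. The unnamed models A730068I03Rik (2021 bp, against Cc2d1b), B230325K18Rik (1408 bp) and 5830462I19Rik (1200 bp, against Scap) also shared exonic sequence with other genes, so their regions cannot be told apart from those genes.

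The widest H3K36me3 regions at these genes belonged to such places. They were 15000 bp wide at Gm17415, a model in an intron of Hdlbp, 13800 bp at B230325K18Rik, and 13400 bp at Sco2, a mitochondrial copper chaperone that overlaps Ncaph2.

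The 10 genes with the most H3K9me3 and no H3K36me3 held between 3200 and 3895 bp of it. Foxc1, a forkhead factor of mesoderm and eye development (chr13:31898515-31902504), had 3790 of 3990 bp covered, its whole coding sequence of 1659 bp included. Kcnf1, a modulatory potassium channel subunit (chr12:17178908-17183694), had 3800 of 4787 bp. Rxfp3, the relaxin-3 receptor (chr15:10963472-10967723), had 3600 of 4252 bp, and Fzd1, a Wnt receptor (chr5:4753842-4758216), had 3400 of 4375 bp. In each of these the coding sequence was wholly inside H3K9me3 regions.

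Ldoc1l, which derives from a retrotransposon gag gene (chr15:84383828-84387922), had 3895 of 4095 bp, and the imprinted Magel2 (chr7:69521865-69526526) had 3336 of 4662 bp. The other 4 were the models Gm996 (3819 bp), Gm1337 (3699 bp), 5730596B20Rik (3354 bp) and A530084C06Rik (3200 bp). The region over 5730596B20Rik was the widest of this mark at single-exon genes, at 20600 bp (chr6:52112001-52132600), and also crosses the homeobox gene Hoxa3. Next came 10000 bp at Foxc2, a forkhead factor of mesoderm, and 5400 bp at Gm5453, a model in an intron of Tnpo1 with 33.3% unique sequence.

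Developmental transcription factors were near the top for H3K9me3. Of 16 single-exon Sox, Fox and POU genes, none carried H3K36me3 (upper Wilson limit 19.4%). With 2.10% of all single-exon genes carrying that mark, its absence does not set the family apart. H3K9me3 was found in 15 of the 16 (93.8%, 71.7 to 98.9). This compares with 40.7% of all single-exon genes of 2001 to 3000 bp, the class of the family's median length of 2490.5 bp. In these 15 genes the length covered by H3K9me3 ran from 211 to 3790 bp with a median of 2520 bp, and 7 were covered from end to end. These 7 were Foxc2 (2722 bp), Foxd2 (2619 bp), Foxd4 (2345 bp), Foxe1 (2804 bp), Foxe3 (977 bp), Foxl2 (2520 bp) and Pou3f1 (3004 bp). Among them are factors of the lens (Foxe3), ovary (Foxl2) and thyroid (Foxe1).

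Foxd1 (2460 bp), Foxd3 (2011 bp), Foxq1 (2562 bp), Pou3f2 (1680 bp) and Pou3f3 (2810 bp) had H3K9me3 over their whole coding sequence without full coverage of the gene. Sox11 had 1174 of 2013 bp. The Sox4 model is a 405 bp fragment that shares its symbol with a longer model and had 211 bp. Foxs1 was the exception without a mark. The multi-exon members of the same families, of any length, carried H3K9me3 in 45 of 56 cases (80.4%), a difference of 13.4 points (-10.2 to 26.6), so a difference between the sets was not detectable at this number of genes.

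The bHLH factors were similar, with H3K9me3 in 8 of 9 (88.9%) and in 23 of 29 multi-exon members of any length (79.3%, difference 9.58 points, -24.6 to 29.5). Atoh1 (2088 bp) and Neurog1 (1659 bp), both proneural factors, were covered completely, and Olig1 had 1787 of 2171 bp. Msgn1 had neither mark. Of the 5 bZIP genes 4 carried H3K9me3, against 3 of 10 multi-exon ones, with an interval of the difference that included 0 (-2.16 to 75.3). The median lengths of the bHLH (1659 bp) and bZIP genes (1807 bp) lie in the class of 1501 to 2000 bp. There 47 of 179 single-exon genes (26.3%) carried H3K9me3, against lower Wilson limits of 56.5% for the bHLH and 37.6% for the bZIP genes. Cebpa, a factor of liver, fat and myeloid cells, had 2289 of 2634 bp, Mafa its whole 1080 bp and Cebpb 386 of 1504 bp, while Junb, an immediate early gene, had neither.

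H3K9me3 was also found in many genes for cell surface receptors and channels, with 1 or with several exons. All 5 single-exon frizzled genes had H3K9me3, from 1400 bp at Fzd9 to 3400 bp at Fzd1. So did 5 of 6 potassium channel genes, and 21 of 45 other G protein-coupled receptors (46.7%, 32.9 to 60.9), among them the 3 alpha-2 adrenergic receptors. Adra2c had 3186 of 3196 bp, Adra2a 3129 of 3801 bp and Adra2b 1800 of 4014 bp. The interval of the 45 receptors holds the 41.5% of all autosomal coding genes. It lies above the 26.3% of single-exon genes of 1501 to 2000 bp, the class of the receptors' median length of 1546 bp. The lower Wilson limits were 43.6% for the channels and 56.6% for the frizzled genes. Both have median lengths in the class of 3001 to 5000 bp, where 50.0% of single-exon genes carried H3K9me3. Multi-exon members of any length carried H3K9me3 in 3 of 5 frizzled genes, 76 of 88 potassium channel genes (86.4%) and 105 of 188 other receptors (55.9%), and each of these 3 differences from the single-exon members had an interval that included 0. Limited to unique sequence and 10 kb, the frizzled counts were 5 of 5 and 1 of 3, with an interval above 0 (3.46 to 93.9), while those of the channels and other receptors still included 0. H3K36me3 was found in none of the 45 single-exon receptors and in 21 of the 188 multi-exon ones (11.2%). Among those with at least 80% unique sequence and up to 10 kb the counts were 0 of 42 and 7 of 74, with an interval of the difference that included 0 (-18.3 to 0.199). The clustered protocadherin beta genes, which encode neuronal adhesion proteins, had H3K9me3 in 13 of 18 (72.2%), with 600 to 2950 bp each and a median of 29.1% of the gene. All 3 multi-exon members carried it, and the interval of the family (49.1% to 87.5%) holds the 50.0% of all single-exon genes of 3001 to 5000 bp, the class of its median length of 3472 bp.

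Chemosensory receptors were at the other end. Of 921 single-exon olfactory receptor genes 38 carried H3K9me3 (4.13%, 3.02 to 5.61) and 1 carried H3K36me3. The median lengths of the olfactory (951 bp), vomeronasal (924 bp) and taste and trace amine receptors (1000 bp) lie in the class of 501 to 1000 bp. In that class 6.92% of single-exon genes carried H3K9me3 and 1.11% H3K36me3, with these receptors counted in it. Multi-exon olfactory receptor genes of any length had H3K9me3 in 12 of 185 (6.49%), and the difference had an interval that included 0 (-2.36 points, -7.00 to 0.754). The gene with H3K36me3 was Olfr90 (chr17:37222136-37223181), with 600 bp in an H3K36me3 region. Vomeronasal receptors had H3K9me3 in 4 of 187 genes (2.14%) against 34 of 140 multi-exon ones of any length (24.3%), and taste and trace amine receptors in 0 of 45, for which the Wilson interval reaches 7.87%. That interval holds the 6.92% of the length class, so the 0 of 45 does not set the taste and trace amine receptors apart. Where only genes with at least 80% unique sequence were counted, and multi-exon genes were limited to 10 kb, the olfactory counts were 29 of 626 and 5 of 141. The vomeronasal counts were then 3 of 94 and 1 of 13, and their difference had an interval that included 0 (-4.50 points, -30.2 to 4.06).

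Single-exon ribosomal protein models had no H3K36me3 in 55 genes (upper Wilson limit 6.53%), whereas 74 of 83 multi-exon ribosomal protein genes carried it (89.2%). The single-exon models had a median of 41.2% unique sequence, and copied sequence can lose reads that align to many places. Among genes with at least 80% unique sequence the counts were 0 of 12 and 63 of 66 (difference -95.5 points, -98.4 to -69.9). The lengths were far apart, with medians of 438 bp and 3499.5 bp, and of all multi-exon genes of up to 500 bp 2 of 64 carried the mark (3.12%), so length and exon number cannot be told apart in this family. Zinc finger genes carried this mark in 0 of 9 single-exon and 248 of 440 multi-exon genes (56.4%), and heat shock genes in 0 of 6 and 41 of 70 (58.6%), with multi-exon genes of any length. Limited to unique sequence and to 10 kb, the counts were 0 of 7 and 55 of 106 for zinc finger genes (difference -51.9 points, -61.2 to -15.2), whose median lengths of 2250 bp and 6447 bp also differed. They were 0 of 5 and 8 of 18 for heat shock genes, where the interval of the difference included 0 (-66.3 to 3.34). Heat shock genes carried H3K9me3 more often with 1 exon, in 4 of 6 against 18 of 70 (41.0 points, 2.58 to 66.2). Under the same limits the counts were 3 of 5 and 2 of 18 (48.9 points, 6.06 to 78.2), with median lengths of 989 bp and 4403 bp. Of the marked genes, Dnajb3 lay in an intron of Ugt1a10 and Dnajb8 shared exonic sequence with another gene. Ribosomal protein genes (1 of 55 against 12 of 83) and testis retrogenes (6 of 22 against 21 of 36) carried H3K9me3 less often with 1 exon. Under the same limits the intervals of both of these differences included 0.

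**Figure D3:**
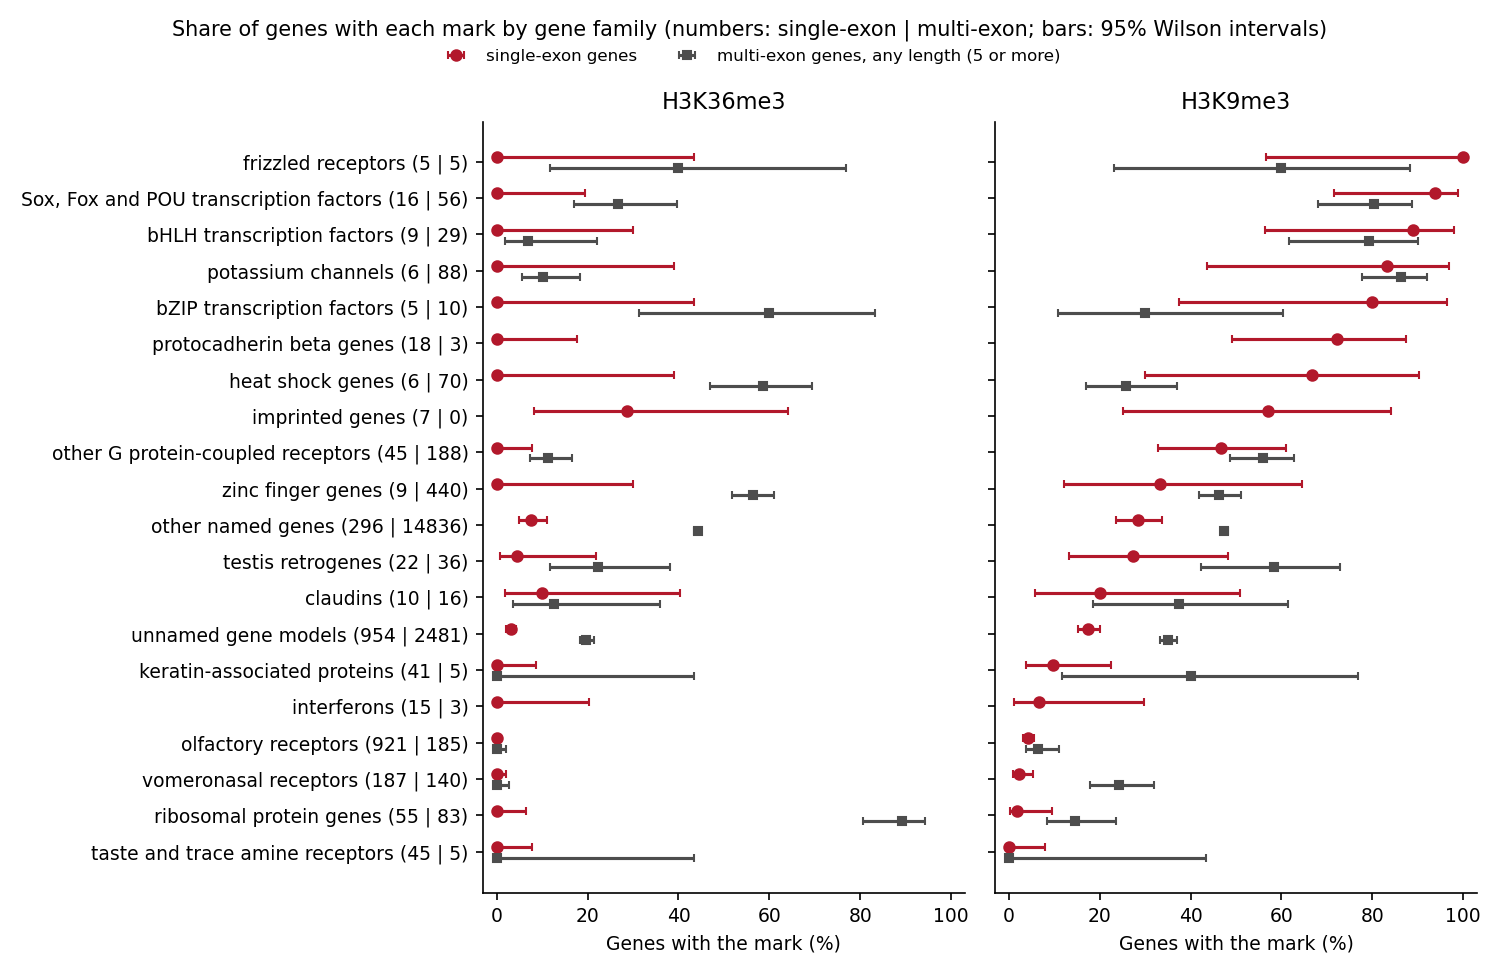
Share of single-exon (red circles) and multi-exon (grey squares, any length, families of 5 or more) genes with H3K36me3 (left) and H3K9me3 (right), in percent, by gene family with 95% Wilson intervals. Frizzled, Sox, Fox, POU and bHLH genes have the highest H3K9me3 shares among the single-exon points, and ribosomal protein genes show the widest gap for H3K36me3, 0 of 55 against 74 of 83.

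Of the 7 single-exon imprinted genes 4 carried H3K9me3 and 2 carried H3K36me3. Their median length of 2561 bp lies in the class of 2001 to 3000 bp. There 40.7% of single-exon genes carried H3K9me3 and 6.22% carried H3K36me3. The Wilson interval of the 4 of 7 holds that 40.7%, so the H3K9me3 count does not set the family apart. For H3K36me3 the lower Wilson limit of 8.22% lies above the class share, but it rests on 2 genes that each overlap another gene. In the imprinted cluster on chromosome 7, Ndn had 1200 of 1652 bp in H3K9me3, Magel2 3336 of 4662 bp and Peg12 2440 of 2640 bp, while Mkrn3, between Magel2 and Peg12, had neither mark. Nap1l5, a retrogene in an intron of Herc3 (chr6:58855228-58857120), lay wholly in H3K9me3. Mcts2, a retrogene in an intron of H13 on the same strand (chr2:152512884-152513676), had 276 of 793 bp in H3K36me3, and Zrsr1, which shares sequence with Commd1 (chr11:22873215-22876498), had 600 of 3284 bp in H3K36me3. The last 2 had no H3K9me3.

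Genes listed as active in many cells or induced by stress differed among themselves. Rhob, a small GTPase, and Kti12, a tRNA modification factor, had neither mark. Hspa1a, the inducible Hsp70, had 2857 of 2926 bp in H3K9me3, yet 38.8% of its sequence is unique, Hspa1b being a near copy, so the assignment of its reads is uncertain. Sox2, Jun, Jund and Hspa1b did not enter, since their annotated transcripts have more than 1 exon.

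Both marks met in 9 of the 11 genes that carried them, at the same bases. How often they meet in multi-exon genes with both marks was not counted, so this count does not set single-exon genes apart. Gm4782 and Gm8038 lie near each other on chromosome 6 and had 1400 and 800 bp of shared bases, but 2.47% and 1.23% of their sequence is unique, so reads could have come from other copies. The shared bases came to 400 bp in Gm7367, which has 29.2% unique sequence. In 9930021J03Rik they came to 800 bp, in 6430527G18Rik to 600 bp and in 4932442E05Rik, which overlaps Dyrk2, to 519 bp.

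The named genes were Ier2, D1Pas1 and Rimbp3. Ier2 (chr8:87185230-87186751) had 800 bp of each mark and 400 bp in common, with H3K9me3 from 151 to 951 bp after its start and H3K36me3 from 551 to 1351 bp. D1Pas1, a testis RNA helicase that arose from a DDX3 gene (chr1:188791295-188794506), had 2506 bp of H3K9me3, 800 bp of H3K36me3 and 400 bp in common. Rimbp3, which acts in sperm head shaping (chr16:17208228-17214064), had 600 bp of each and 200 bp in common. Over all 11 genes, H3K9me3 began further upstream along the gene's strand in 9 and H3K36me3 in 2, Mesdc1 and 6430527G18Rik. This order was not compared with that in multi-exon genes.

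Mesdc1 (800 bp of H3K36me3 and 600 bp of H3K9me3) and Fem1a (2200 and 785 bp), a ubiquitin ligase adaptor, carried both marks at separate bases. As the lists join WT and G34R cells, shared bases do not show that both marks were present in 1 cell type.

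**Figure D4:**
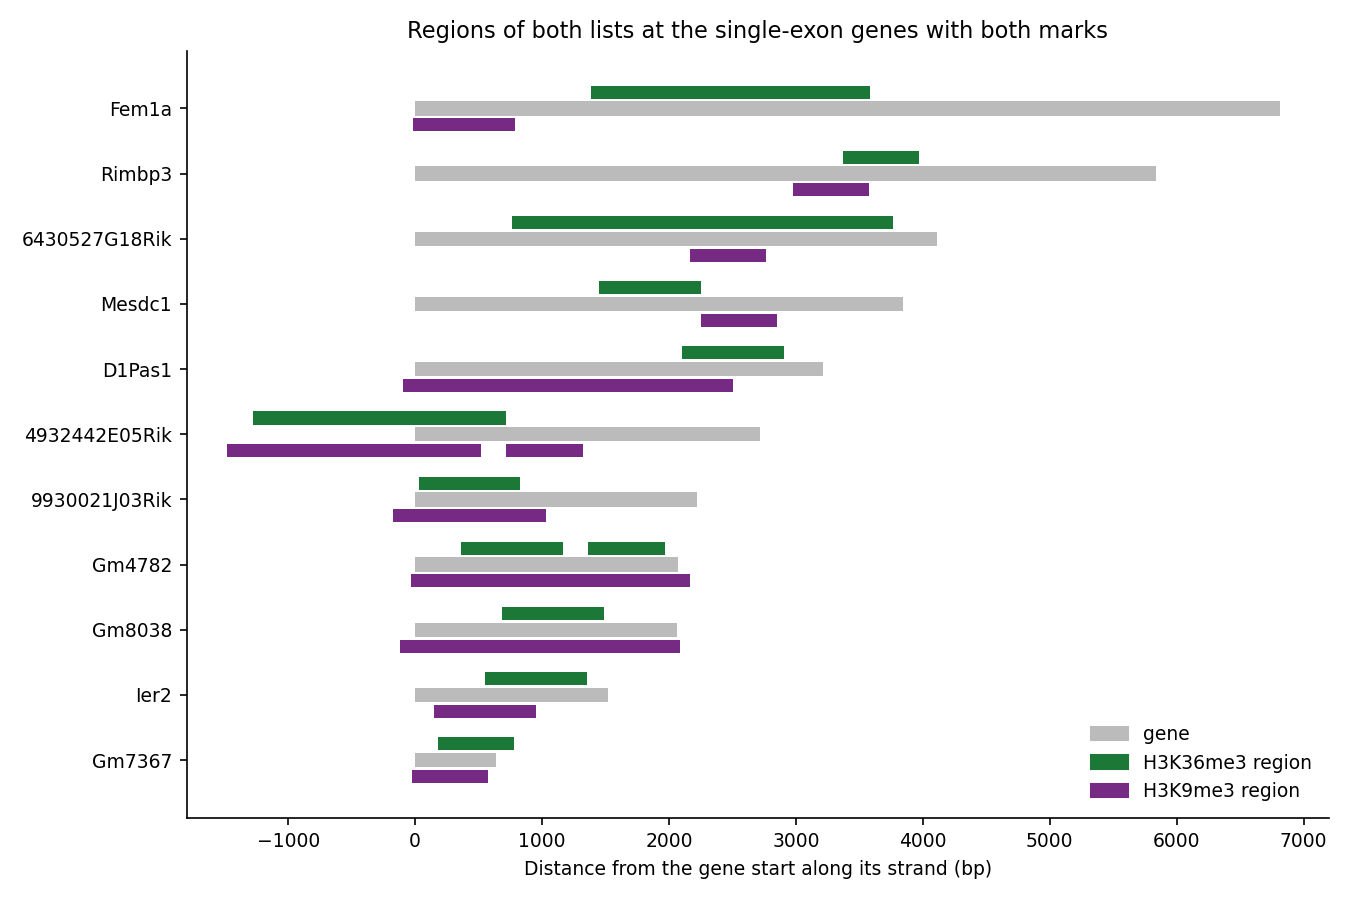
Listed regions of H3K36me3 (green) and H3K9me3 (purple) at the 11 single-exon genes with both marks, drawn to scale in bp from the start of each gene along its strand, with the gene in grey. The marks share bases in 9 genes, abut without a gap in Mesdc1 and lie apart in Fem1a.

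Within the genes that carried it, H3K36me3 was not placed as in multi-exon genes of the same length. The last base of the gene was in a region in 22 of 56 single-exon genes (39.3%) against a length-weighted 83.7% of multi-exon genes (difference -44.4 points, -58.8 to -30.1). The first base was covered in 22 (39.3%) against 16.0% (difference 23.3 points, 7.96 to 38.6). With genes that overlap another gene left out, the difference at the end was -43.7 points (-63.2 to -24.3), over the 27 of 28 such genes whose length class also held marked multi-exon genes, and that at the start was 10.4 points with an interval that included 0 (-7.03 to 27.9). H3K36me3 covered a median of 743.5 bp, or 45.4% of the gene, and lay wholly inside the gene's bounds in 24 of 56.

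For H3K9me3 the differences in placement did not exceed their counting error. The start was covered in 246 of 389 single-exon genes (63.2% against 59.1%, difference 4.10 points, -3.88 to 12.1) and the end in 147 (37.8% against 42.3%, difference -4.51 points, -12.9 to 3.85). The mark covered a median of 814 bp, or 66.2% of the gene, and 93 genes were wholly covered. At least 1 coding base was included in 377 of the 389 genes.

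**Figure D5:**
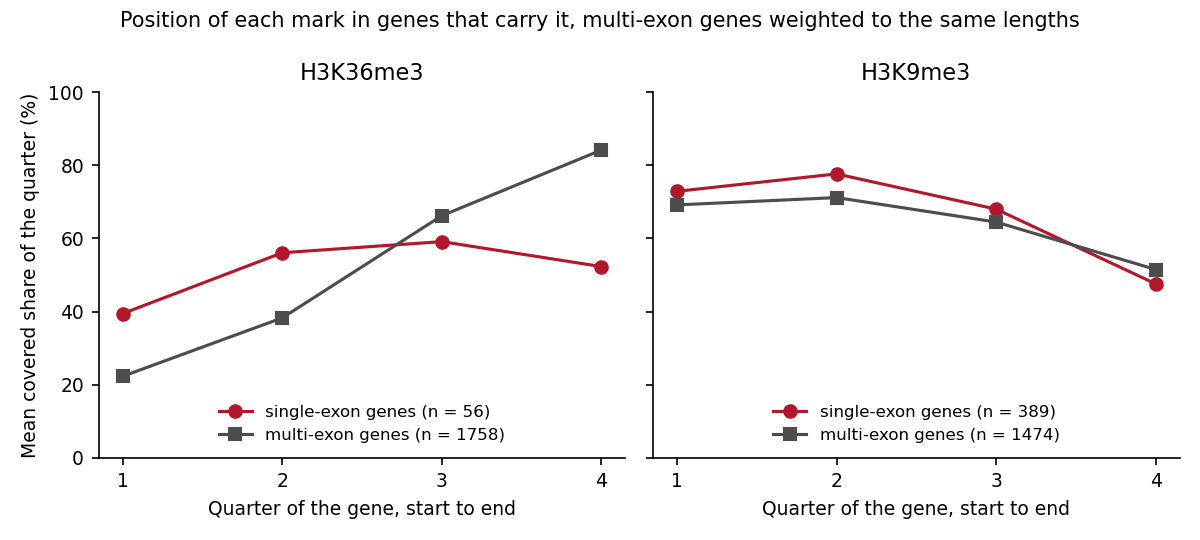
Mean covered share, in percent, of each of 4 equal parts of the gene from start to end, for genes that carry H3K36me3 (left) and H3K9me3 (right), in single-exon genes (red) and multi-exon genes weighted to the same lengths (grey). H3K36me3 in multi-exon genes climbs from 22.3% to 84.1% along the gene and in single-exon genes is 39.4%, 56.1%, 59.1% and 52.3% in turn, and the H3K9me3 lines lie close together.

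Marked genes were richer in CpG than unmarked ones. The CpG observed to expected ratio, which is 1 where CpG is as frequent as the base content predicts, had a median of 0.489 in genes with H3K9me3 alone, 0.370 with H3K36me3 alone, 0.641 with both and 0.199 with neither. The median G+C content was 53.6%, 53.0%, 54.4% and 45.7% in that order. The share with H3K9me3 was 3.90% of single-exon genes with a ratio of up to 0.2 (46 of 1178), 12.8% up to 0.4 (95 of 743) and 41.8% above 0.6 (152 of 364), with 96 of 384 genes in the class between. Multi-exon genes of up to 10 kb rose in the same order, from 15.8% to 58.3%, and were longer in each class. Gene length, family and read recovery move with the ratio, and their parts in this order were not tested.

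Unique sequence moved with the marks as well. H3K9me3 was found in 15 of 282 genes with under 20% unique sequence (5.32%), 48 of 682 with 20% to 80% (7.04%) and 326 of 1708 with 80% or more (19.1%). H3K36me3 was found in 1.42%, 1.32% and 2.52% of these genes. By chromosome the share with H3K9me3 ran from 6.11% on chromosome 2 (19 of 311) to 32.9% on chromosome 18 (25 of 76), which holds the protocadherin beta cluster.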

How the data were processed

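The 4 ChIP-seq libraries, 1 per mark and cell type, were summarised by the authors as 2 deposited lists with 3 columns each (chromosome, start, end) and no signal. Per the study's methods and the submitters' processing notes, reads were aligned to mm9 with Bowtie 1.0.0, allowing a few alignments per read, PCR duplicates were removed, reads were counted in bins and scaled, bins over a high percentile in WT or G34R cells within UCSC genes were kept, and bins were merged with bedtools 2.20.1. A gene model that overlaps no gene of that set could therefore not be marked. The methods also state that merged regions over a size limit were excluded, which the lists go against, since the narrowest region is 600 bp and wider ones are present, so the size filter applied is not known here. Of the genes, 448 are shorter than the narrowest region.

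Genes, exons and sequence were taken from GENCODE vM1 and NCBIM37. Left out were 61 Hist genes and 125 genes on the X and Y. Of the single-exon genes 1693 matched RefSeq, and 84 share a symbol with another model. Unique sequence is the share of 50-base windows, started every 25 bases, that occur once in the genome on either strand. Multi-exon genes of up to 10 kb were weighted to the single-exon genes in length classes bounded at 0.5, 1, 1.5, 2, 3, 5 and 10 kb. Intervals are 95% Wilson (shares), Newcombe (differences of shares) or normal (weighted differences) intervals, for counting error only. With 1 library per group and pooled lists, no p-value was computed. Positions are given by gene start, gene end and 4 equal parts of the gene. Calculations used Python 3.11.15, NumPy 2.4.6, pandas 2.3.3, SciPy 1.17.1 and numba 0.67.0 and were tested on simulated data. The members, gene lists and tests were chosen with earlier results of these data known.

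Genes are named by rule: up to 15 with the most bases in both lists, the 10 with the most of each mark alone, the imprinted list, marked Sox, Fox, Pou, Jun and Cebp genes, a list of ES cell and housekeeping genes, and the 3 widest regions per mark. Other names (family examples and exceptions, H3K36me3 and H3K9me3 at separate bases, sequences) were picked with their values in view. The alternatives varied the overlap, region width, gene definition, gene set and matching.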

Additional observations from a re-analysis of the deposited data

How the results depend on the processing

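Of 73 values under alternative settings, 44 stayed near those reported and 29 moved. For shares and differences, near meant inside the reported interval. For the count of genes with both marks, which gave 8 of the 44, it meant within a fixed factor of the reported count. The H3K9me3 difference, whose interval included 0 as reported, was below 0 in 4 of 17 settings and above 0 in 13. With at least 50% of the gene covered, the shares were 0.936% for H3K36me3 and 9.92% for H3K9me3. In this setting 3 genes carried both marks, and the H3K36me3 difference from multi-exon genes was -2.71 points. With regions of at least 1 kb these shares were 1.16% and 8.20%, with both marks in 1 gene. Without chemosensory receptors they were 3.63% and 22.9%, and the H3K9me3 difference was 7.79 points. Without genes that overlap another they were 1.26% and 12.4%, with an H3K9me3 difference of -1.20 points, and without unnamed models 1.57% and 12.9%, with both marks in 5 genes. With genes under 80% unique left out the H3K9me3 share was 19.1% and its difference 3.82 points, with an interval above 0 (0.266 to 7.37). Matched on transcript length, the differences were -19.05 points for H3K36me3 and -12.6 points for H3K9me3.

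Other settings were chosen after seeing the data. In named genes without chemosensory receptors the shares were 4.63% and 32.03%, and 5 genes carried both marks. The differences were -12.2 and 14.7 points in this set, or -13.03 and 13.3 points when G+C was matched too. In genes with a RefSeq match the shares were 1.54% and 13.1%, with both marks in 5 genes, and without genes that share an exon the H3K9me3 share was 12.6%, and the H3K9me3 differences in these sets were -0.354 and -0.233 points. The H3K36me3 difference was below 0 in each setting run. The sign of the H3K9me3 difference depended on the gene set and on the length that is matched.

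The lists give no signal, depth or cell type, a region under 600 bp cannot appear, and reads from copied sequence are not placed with certainty. No paired analysis was possible because each group has 1 library and each list pools the cell types.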
